A study of Mus musculus with 8 samples.

Results

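The genes described here are 42 microglial genes, 22 that mark microglia or myeloid cells in the resting brain and 20 that are known to increase when microglia become activated, out of 54446 gene identifiers in the count table. They were chosen by name, and Ensembl identifiers were matched to GENCODE M21 symbols on the mouse build GRCm38; all 42 were found. The 2 sets are kept apart below and are called the homeostatic and the activation genes. The first also holds general myeloid genes, and genes such as Trem2 and Tyrobp whose signalling accompanies activation, so its name is only a label. Poly(A) RNA from mouse medial prefrontal cortex was sequenced in 8 libraries, of which 4 carry the label Ino80e overexpression and 4 the label wild type. The study's design text describes an adeno-associated virus injected stereotaxically into that region to alter the risk gene. The promoter of the vector, the strain, sex and age of the mice, whether wild-type mice received a control virus and whether each library is a separate mouse are not given in the sources at hand. The p-values below therefore reflect differences among 8 libraries, which may in part be technical.

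Microglia are the resident macrophages of the brain. They survive on signalling through the CSF1 receptor and, at rest, sense neurons and nucleotides through the fractalkine receptor CX3CR1 and the purine receptor P2RY12. In mouse models of neurodegeneration and injury, signalling of the receptor TREM2 through its adaptor TYROBP accompanies a state in which lipid, lysosomal and phagocytic genes such as Apoe, Lpl, Cst7, Clec7a and Itgax increase and homeostatic genes such as P2ry12, Tmem119 and Cx3cr1 decrease. The transcription factor PU.1, encoded by Spi1, drives many myeloid promoters and binds purine-rich sites whose classical core is the PU box GAGGAA.

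The PU box was looked for on both strands in the 250 bases before each RefSeq gene start (GRCm38.p6), because the members are genes of one lineage. Of the 42 genes, 34 matched 39 windows, and 19 of these windows (48.7%) held it, against 23.3% of all 32851 windows. By set it was in 11 of 18 homeostatic windows and in 8 of 21 activation windows. A match describes letters and does not show a bound site. Shown are the windows of 3 genes whose fold changes were above 0 and of P2ry13, whose fold change was close to 0, read 5′ to 3′ along each gene up to the base before its start, with the PU box or its reverse complement in capitals. They lie on chr17:48346151-48346400 (plus strand) for Trem2, chr11:69666171-69666420 (minus strand) for Cd68, chr3:95526536-95526785 (plus strand) for Ctss and chr3:59210883-59211132 (minus strand) for P2ry13.
Trem2: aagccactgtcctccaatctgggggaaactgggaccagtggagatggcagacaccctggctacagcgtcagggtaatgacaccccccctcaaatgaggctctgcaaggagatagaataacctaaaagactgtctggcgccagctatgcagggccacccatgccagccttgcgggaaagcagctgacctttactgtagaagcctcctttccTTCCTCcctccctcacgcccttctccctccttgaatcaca
Cd68: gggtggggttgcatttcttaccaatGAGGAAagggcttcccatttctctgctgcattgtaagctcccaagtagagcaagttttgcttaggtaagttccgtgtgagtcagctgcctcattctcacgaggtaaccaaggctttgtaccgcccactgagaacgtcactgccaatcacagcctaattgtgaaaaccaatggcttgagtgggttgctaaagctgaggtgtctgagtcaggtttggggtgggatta
Ctss: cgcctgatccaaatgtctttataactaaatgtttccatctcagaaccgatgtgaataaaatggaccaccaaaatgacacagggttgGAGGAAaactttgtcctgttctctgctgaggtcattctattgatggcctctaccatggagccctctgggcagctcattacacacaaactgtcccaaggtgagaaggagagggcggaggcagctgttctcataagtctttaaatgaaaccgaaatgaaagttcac
P2ry13: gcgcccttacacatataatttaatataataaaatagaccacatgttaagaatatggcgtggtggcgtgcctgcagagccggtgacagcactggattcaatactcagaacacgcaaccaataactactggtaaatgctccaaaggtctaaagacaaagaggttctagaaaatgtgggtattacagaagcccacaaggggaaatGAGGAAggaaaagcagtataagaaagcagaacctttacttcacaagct
The match began 40 bases before the start in Trem2, 225 in Cd68, 164 in Ctss and 48 in P2ry13. Every window shown holds a match, so these windows cannot tell whether a match goes with the fold change. The windows of Lyz2, Fcer1g, Gpnmb and Lgals3 (fold changes above 0) and of P2ry12 (below 0) held no match.

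Before the comparison, the targeted gene was read as a check of the labels. Ino80e stood at 74.1, 23.4, 23.3 and 45.04 CPM (counts scaled to library size, as processed below) in the libraries labelled overexpression, in the order of replicates 1 to 4 used throughout, against 22.3, 19.5, 25.5 and 20.7 CPM in wild type. Replicates 2 and 3 labelled overexpression therefore lie inside the wild-type range, and every direction below is that of the label (log2 fold change 0.91, SE 0.42, edgeR adjusted p = 0.51). Library totals ran from 44762378 to 60490153 counts. Summed choroid plexus markers reached 1139 CPM in wild-type replicate 4, against 9.59 to 110.2 CPM in the other 3 wild-type libraries and 15.3 to 110.1 CPM in the libraries labelled overexpression, so that library stands apart. GC-rich transcripts were higher in the libraries labelled overexpression across the transcriptome, with a slope of log2 CPM per 10 points of GC that was higher by 0.11 (exact two-sided permutation p = 0.0286, the smallest 4 against 4 libraries allow), and values corrected for GC content are given beside results that the correction moves by over 1.5 times or turns.

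Microglial transcripts were present in all 8 libraries at modest levels. Per kilobase of exon, the homeostatic genes ran in wild type from Ctss, a lysosomal cysteine protease, at 41.1 ± 2.37 FPKM (SD, n = 4) to Itgam, the CD11b integrin chain, at 0.946 ± 0.207 FPKM. Itgam's level and rank may be too low, since 3450 of its 5024 exon bases are shared with another annotated gene on its strand. Csf1r followed Ctss at 22.5 ± 1.63 FPKM and Cx3cr1 at 15.2 ± 0.902 FPKM, both apart from the next genes above them by more than their summed SDs. Below Cx3cr1, levels from P2ry12 (12.7 FPKM) through Fcrls and Laptm5 to Tmem119 (11.03 FPKM) stood so close that no neighbours in that order differed beyond their SDs. The activation genes spanned a far wider range. Apoe, the main lipid carrier of the brain and also abundant in astrocytes, stood at 723 ± 44.6 FPKM in wild type, and the lysosomal proteases Ctsb and Ctsd at 112 and 61.8 FPKM. Clec7a, Itgax, Cst7 and Ch25h, which mark activation more narrowly, stood at 0.103, 0.0898, 0.0414 and 0.0289 FPKM. Transcripts such as Apoe, Ctsb, Cd9, Cd63, Csf1 and Lpl are made by several brain cell types, and in this bulk tissue fewer cells of a type and less RNA per cell cannot be told apart.

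**Figure D1:**
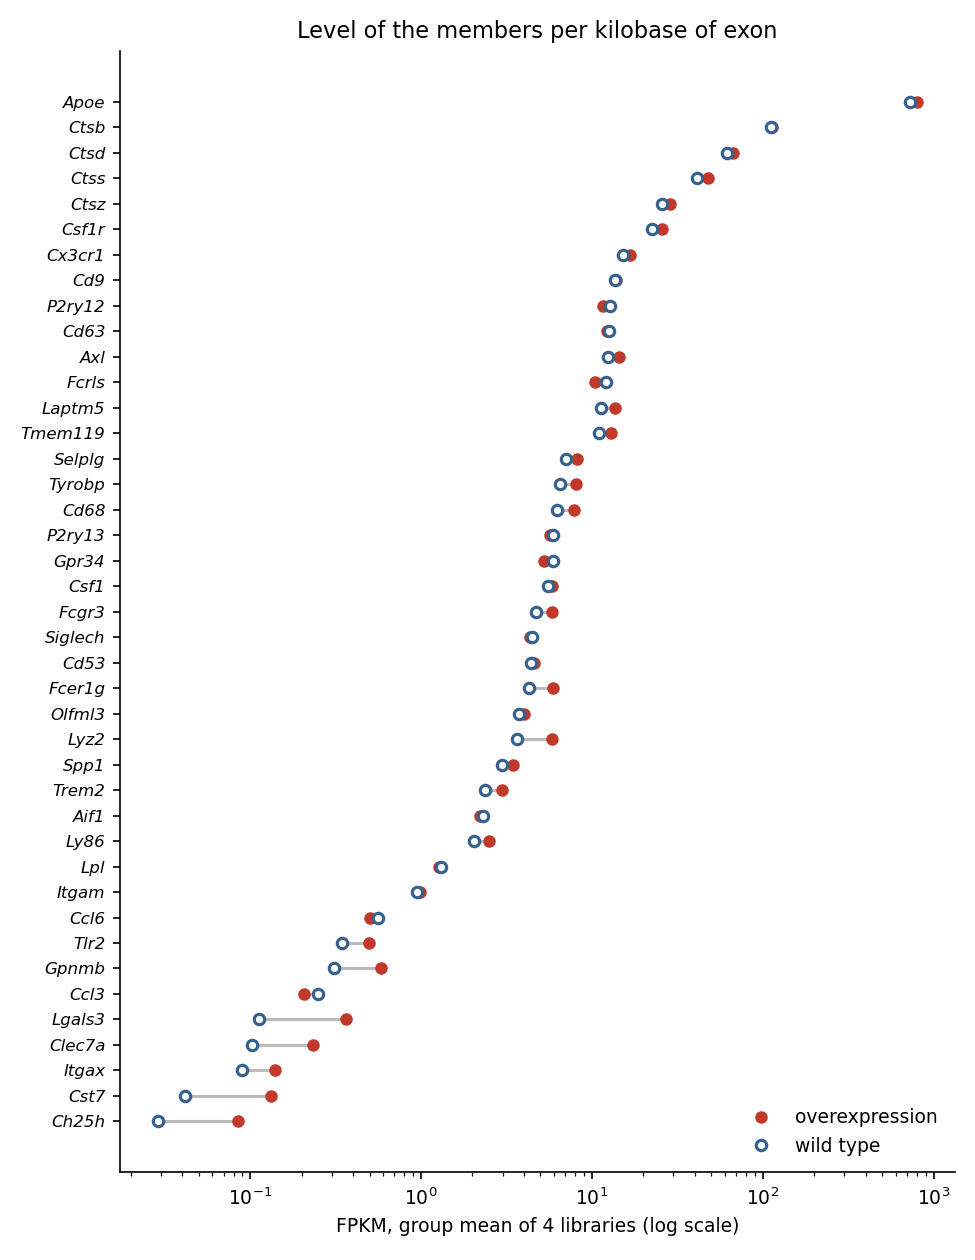
Mean level of 41 members (FPKM, log axis) in the 4 libraries labelled overexpression (filled) and the 4 wild-type libraries (open); Ccl4, listed at 0 in wild type, is left out. Apoe stands at 797 and 723 FPKM, and the narrow activation markers below Ccl6 sit under 1 FPKM in both groups.

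No member passed the test over all genes. The comparison asks which microglial transcripts differ between the libraries labelled overexpression and wild type, and edgeR's quasi-likelihood test with Benjamini-Hochberg adjustment over 17636 genes called 0 of the 38 members that passed the low-count filter, with 0.034% of all genes called; the lowest adjusted p of a member was 0.24 (Lyz2). DESeq2 called Lyz2 alone (adjusted p = 0.041), with 0.317% of genes called, and limma-voom called 0 members (0.0113% of genes called). At an unadjusted p under 0.05, 17 of the 38 members were higher (44.7%, against 5.24% of all genes) and 1 was lower (2.63%, against 5.43%). After correction for GC content 11 were higher (28.9%, against 2.49% of all genes) and 2 lower (5.26%, against 2.59%). The members' counts are descriptions, since the genes were chosen with earlier results of these data known and genes of one cell type share its abundance.

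Among the homeostatic genes, 16 of 22 had a positive log2 fold change with a median of 0.20 (0.14 after GC correction), against 50.5% of all genes and a median of 0.0016 (47.5% and -0.0062 after GC correction). The 6 genes below 0 were Fcrls, Gpr34, P2ry12, Aif1, P2ry13 and Siglech, of which P2ry13 and Siglech turned after GC correction. Among the activation genes, 16 of 20 had a higher mean in the libraries labelled overexpression, including Cst7, Ccl4 and Ch25h, which were too low to test. Of the 16 that entered the test, 13 had fold changes above 0, with a median of 0.16 (0.075 after GC correction). Lgals3 and Clec7a entered it mainly through the libraries labelled overexpression, and over all 20 genes with no low-count filter the median was 0.19. The number of members with an unadjusted p under 0.05 was 11 of 38 without wild-type replicate 2, where 7.40% of all genes had one, against 18 of 38 with all libraries, where 10.7% had one. Without wild-type replicate 4, the library with choroid plexus transcripts, the medians were 0.16 (homeostatic) and 0.13 (activation), and 14 of 39 members had an unadjusted p under 0.05, against 9.77% of all genes.

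**Figure D2:**
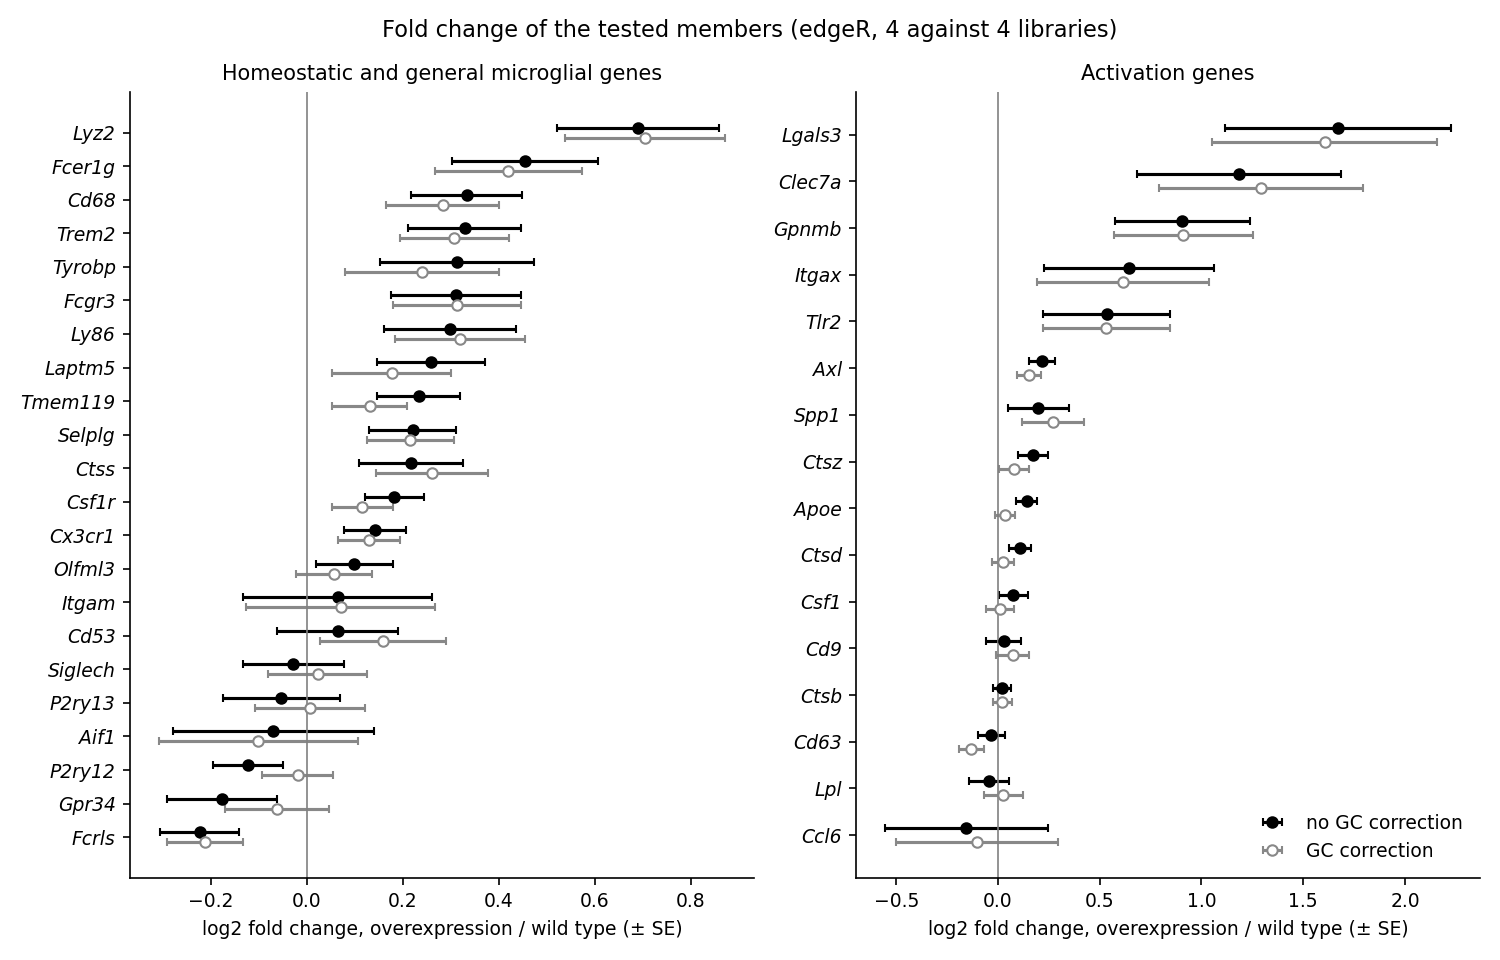
Log2 fold change with SE, libraries labelled overexpression over wild type (n = 4 each), for the 22 homeostatic and 16 tested activation genes, without (filled) and with (open) correction for GC content. Lyz2 (0.69) and Lgals3 (1.67) head the 2 panels, and Fcrls (-0.22), Gpr34 and P2ry12 stand at the lower end of the first.

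The receptors with which resting microglia sense their surroundings did not share one direction. Cx3cr1, the fractalkine receptor (ENSMUSG00000052336), stood at 80.8, 82.8, 69.6 and 68.9 CPM in the libraries labelled overexpression, against 67.2, 69.6, 73.3 and 63.7 CPM in wild type. Its first 2 replicates labelled overexpression were above all wild-type libraries and the others lay within their range (log2 fold change 0.14, SE 0.064, edgeR adjusted p = 0.44). P2ry12, the ADP receptor that guides process movement toward injury, stood at 29.2, 31.9, 30.6 and 27.1 CPM in the libraries labelled overexpression, against 34.7, 31.8, 33.6 and 29.4 CPM in wild type, and the groups overlapped (log2 -0.12, SE 0.073, adjusted p = 0.55; -0.02 after GC correction). P2ry13, a related ADP receptor, was at log2 -0.05 (SE 0.12), or 0.0059 after GC correction, and Gpr34, a lysophosphatidylserine receptor, at -0.18 (SE 0.11), or -0.06 after GC correction; the transcripts of P2ry12 and Gpr34 are poor in GC (38.6% and 37.1%).

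Of the other homeostatic surface and secreted genes, Tmem119 was higher and Fcrls lower, neither past the threshold. Tmem119, a membrane protein used as a microglia-specific marker, stood at 32.0, 30.2, 30.7 and 27.0 CPM in the libraries labelled overexpression, against 27.4, 20.8, 27.9 and 26.0 CPM in wild type. Only replicate 4 labelled overexpression overlapped wild type (log2 0.23, SE 0.086, adjusted p = 0.36; 0.13 after GC correction). Fcrls, a mouse Fc receptor-like microglial gene (ENSMUSG00000015852, chromosome 3 at 87250758 to 87263738, minus strand), stood at 25.04, 26.3, 21.4 and 24.2 CPM in the libraries labelled overexpression, against 32.3, 26.6, 27.4 and 27.0 CPM in wild type. All 4 libraries labelled overexpression were below all 4 wild-type ones (log2 -0.22, SE 0.082, adjusted p = 0.35; -0.21 after GC correction), and it was the only member in that position, where 3.02% of all genes were. Selplg, the P-selectin ligand, stood at 39.3, 35.9, 34.8 and 30.2 CPM in the libraries labelled overexpression, against 30.4, 25.9, 35.4 and 28.6 CPM in wild type, and the groups overlapped (log2 0.22, SE 0.091, adjusted p = 0.40). Olfml3, a secreted matrix protein, was at log2 0.10 (SE 0.080), or 0.06 after GC correction, and Siglech, a sialic acid-binding lectin, at -0.03 (SE 0.11), or 0.02 after GC correction.

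Csf1r, the receptor on which microglial survival depends, stood at 161, 153, 145 and 132 CPM in the libraries labelled overexpression, against 125, 135, 140.5 and 119.9 CPM in wild type. Only replicate 4 of the libraries labelled overexpression lay within the wild-type range (log2 0.18, SE 0.062, adjusted p = 0.33; 0.12 after GC correction). Its exons overlap Hmgxb3 on the opposite strand over 873 bases, so part of its counts is uncertain where the counting ignored strand. Its ligand gene Csf1, which astrocytes and other cells also make, was at log2 0.07 (SE 0.072), or 0.0089 after GC correction. Il34, which encodes the neuronal ligand of the same receptor, was at 0.07 (SE 0.054), or -0.02 after GC correction, so its sign turned.

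Fcer1g, Fcgr3, Trem2 and Tyrobp were grouped here as activating adaptors and immune receptors that signal through them. These 4 genes had fold changes above 0, against 50.5% of all genes. The group is not complete, since it leaves out Siglech (log2 -0.03), placed among the surface genes above. The 4 fold changes ran from 0.31 to 0.45, and none passed. Fcer1g, the common gamma chain of Fc receptors (ENSMUSG00000058715, chromosome 1 at 171229572 to 171234365, minus strand), stood at 4.71, 5.70, 5.44 and 4.77 CPM in the libraries labelled overexpression, against 3.70, 3.78, 3.88 and 3.68 CPM in wild type. The groups did not overlap, and the wild-type libraries were nearly alike (log2 0.45, SE 0.15, adjusted p = 0.32; 0.42 after GC correction). Fcgr3, a low-affinity IgG receptor that uses this chain, stood at 9.14, 13.4, 9.97 and 8.09 CPM in the libraries labelled overexpression, against 8.73, 7.90, 8.79 and 7.31 CPM in wild type (log2 0.31, SE 0.14, adjusted p = 0.43). Replicate 2 labelled overexpression was well above the rest of Fcgr3's values, and replicate 3 was next. Without both of these its log2 fold change was 0.07, the lowest among its 20 alternatives.

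Trem2, the lipid-sensing receptor of phagocytic microglia whose promoter is shown above (ENSMUSG00000023992, chromosome 17 at 48346401 to 48354147, plus strand), stood at 15.7, 17.1, 12.7 and 13.2 CPM in the libraries labelled overexpression, against 12.2, 9.65, 13.9 and 10.95 CPM in wild type. Replicates 1 and 2 labelled overexpression were above every wild-type library and the others were not (log2 0.33, SE 0.12, adjusted p = 0.34; 0.31 after GC correction). Tyrobp, the adaptor of TREM2, stood at 4.85, 6.26, 4.45 and 5.93 CPM in the libraries labelled overexpression, against 3.92, 5.13, 4.19 and 4.04 CPM in wild type, with wild-type replicate 2 inside the upper group (log2 0.31, SE 0.16, adjusted p = 0.49).

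**Figure D3:**
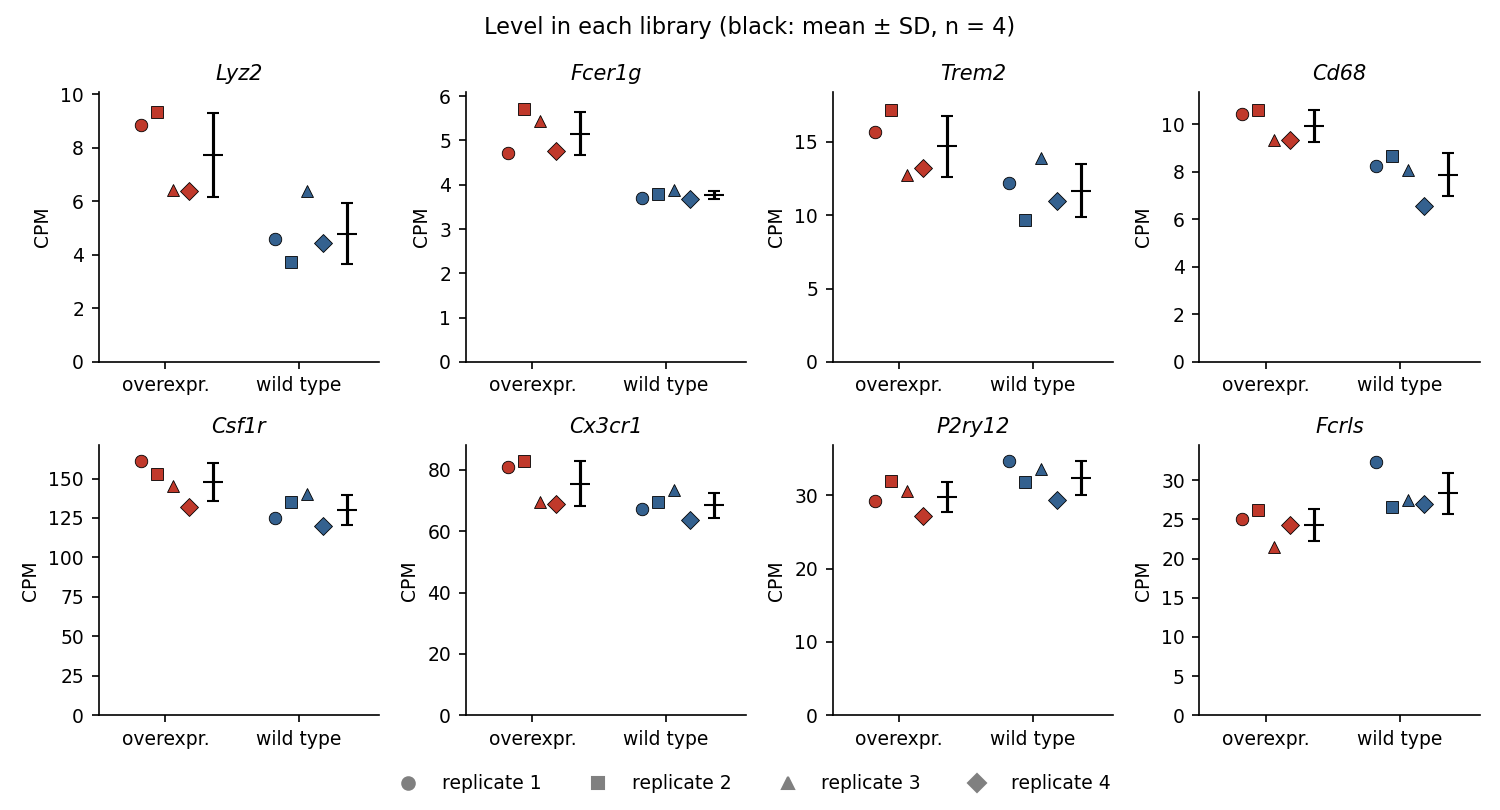
Level in CPM of 8 homeostatic genes in each library, replicates 1 to 4 by symbol, with the mean and SD (n = 4) of the libraries labelled overexpression (left) and wild type (right). Fcer1g and Cd68 are higher with no overlap, Fcrls lower with no overlap, and in Lyz2, Trem2 and Cx3cr1 replicates 1 and 2 labelled overexpression stand above the other 2.

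General myeloid markers gave no common direction. Aif1, which encodes the actin-binding protein IBA1 used to stain microglia, stood at 2.94, 4.63, 2.38 and 3.58 CPM in the libraries labelled overexpression, against 3.63, 4.19, 2.61 and 3.76 CPM in wild type, and the groups overlapped fully (log2 -0.07, SE 0.21, adjusted p = 0.93). Ly86, which encodes the MD-1 partner of a Toll-like receptor homologue, stood at 9.94, 9.79, 8.79 and 7.75 CPM in the libraries labelled overexpression, against 9.53, 6.001, 6.99 and 7.01 CPM in wild type (log2 0.30, SE 0.14, adjusted p = 0.44), with wild-type replicate 1 inside the upper group. For Cd53, a leukocyte tetraspanin, the log2 fold change was 0.06 (SE 0.13), or 0.16 after GC correction, and for Itgam 0.06 (SE 0.20). An annotated gene on the same strand shares 3450 exon bases with Itgam and was listed at 0 in all 8 libraries, so Itgam's counts may leave out shared reads.

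Among lysosomal and lysozyme genes, Lyz2, the myeloid lysozyme, had the lowest p of all members. Lyz2 (ENSMUSG00000069516, chromosome 10 at 117277331 to 117282321, minus strand) stood at 8.83, 9.32, 6.41 and 6.37 CPM in the libraries labelled overexpression, against 4.59, 3.72, 6.38 and 4.44 CPM in wild type. Replicates 1 and 2 labelled overexpression were well above every other library, and replicates 3 and 4 stood level with wild-type replicate 3 (log2 0.69, SE 0.17, edgeR adjusted p = 0.24; 0.70 after GC correction). It passed in DESeq2 (adjusted p = 0.041) and in edgeR with no low-count filter (adjusted p = 0.0034), and its log2 fold change was 0.42 without replicates 1 and 2 labelled overexpression. The neighbouring lysozyme gene Lyz1, whose sequence is close to that of Lyz2, held 0 to 2 counts in each library.

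Cd68, a lysosomal membrane glycoprotein of phagocytes (ENSMUSG00000018774, chromosome 11 at 69664213 to 69666153, minus strand), stood at 10.4, 10.6, 9.32 and 9.33 CPM in the libraries labelled overexpression, against 8.24, 8.65, 8.06 and 6.58 CPM in wild type. The groups did not overlap (log2 0.33, SE 0.12, adjusted p = 0.34; 0.28 after GC correction). Cd68 and Fcer1g were the 2 homeostatic genes with every library labelled overexpression above every wild-type one, a position held by 2.82% of all genes, and no tested activation gene was in it. Ctss stood at 74.5, 74.6, 54.5 and 55.9 CPM in the libraries labelled overexpression, against 59.2, 52.4, 57.8 and 53.9 CPM in wild type, so that replicates 1 and 2 were above all others and replicates 3 and 4 within the wild-type range (log2 0.22, SE 0.11, adjusted p = 0.51). Laptm5, a lysosomal membrane protein of blood-lineage cells, was also highest in those replicates, with 61.5, 52.6, 47.0 and 44.8 CPM in the libraries labelled overexpression, against 45.3, 42.5, 48.7 and 35.7 CPM in wild type (log2 0.26, SE 0.11, adjusted p = 0.46).

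The broadly expressed lysosomal proteases differed little between the groups. Ctsb had a log2 fold change of 0.02 (SE 0.043), Ctsd of 0.11 (SE 0.054), or 0.02 after GC correction, and Ctsz of 0.17 (SE 0.075), or 0.08 after GC correction. Ctsz stood at 43.9, 45.9, 41.9 and 34.3 CPM in the libraries labelled overexpression, against 35.4, 36.7, 38.0 and 37.4 CPM in wild type, with replicate 4 labelled overexpression the lowest of all 8 (adjusted p = 0.43). The tetraspanin genes Cd63 and Cd9 had log2 fold changes of -0.03 (SE 0.065) and 0.03 (SE 0.086). After GC correction Cd63 was at -0.13 (SE 0.059, unadjusted p = 0.037 in edgeR), 1 of the 2 members counted as lower there, and Cd9 at 0.07. Ctsb shares 774 exon bases with Fdft1 on the opposite strand, and Ctsd shares 808 with an annotated gene on its own strand that was listed at 0.

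Gpnmb, a glycoprotein of lipid-laden phagocytes, was set apart by 1 library. It stood at 6.96, 3.70, 2.15 and 2.33 CPM in the libraries labelled overexpression, against 2.21, 1.602, 1.84 and 2.42 CPM in wild type, so that replicates 1 and 2 labelled overexpression were above every wild-type library and the others were not (log2 0.91, SE 0.33, adjusted p = 0.38). Without replicate 1 labelled overexpression its log2 fold change was 0.43, and without replicates 1 and 2 it was 0.15. With no low-count filter it passed (adjusted p = 0.018).

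Lipid genes showed small differences. Apoe stood at 1793, 1775, 1677 and 1571 CPM in the libraries labelled overexpression, against 1546, 1452, 1677 and 1510.0 CPM in wild type (log2 0.14, SE 0.051, adjusted p = 0.35). The groups overlapped, and after GC correction its log2 fold change was 0.03; its transcript is rich in GC (59.5%). The lipoprotein lipase gene Lpl had a log2 fold change of -0.04 (SE 0.098), or 0.03 after GC correction. Ch25h, which encodes cholesterol 25-hydroxylase, held 15, 4, 6 and 0 counts in the libraries labelled overexpression, against 2, 0, 2 and 4 in wild type, and did not pass the low-count filter.

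All 5 activation receptors and lectins had fold changes above 0, against 50.5% of all genes. Of these, Lgals3 and Clec7a entered the test mainly through the libraries labelled overexpression, which favours that sign. The rare genes among the 5 had wide errors. Axl, a receptor tyrosine kinase for apoptotic cells (ENSMUSG00000002602, chromosome 7 at 25757273 to 25788705, minus strand), was the only abundant one, with 80.7, 71.6, 68.4 and 71.01 CPM in the libraries labelled overexpression, against 61.03, 59.99, 70.7 and 59.5 CPM in wild type. A single wild-type library, replicate 3, lay within the range of the libraries labelled overexpression (log2 0.21, SE 0.063, adjusted p = 0.31; 0.15 after GC correction). Lgals3, the galectin-3 gene (ENSMUSG00000050335, chromosome 14 at 47367751 to 47386160, plus strand), held 36, 44, 22 and 38 counts in the libraries labelled overexpression, against 2, 8, 8 and 24 in wild type. In CPM, replicate 3 labelled overexpression (0.364) lay below wild-type replicate 4 (0.475), and the other libraries labelled overexpression were above all of wild type (log2 1.67, SE 0.56, adjusted p = 0.32).

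Clec7a, which encodes the beta-glucan receptor dectin-1, held 14, 30, 54 and 34 counts in the libraries labelled overexpression, against 20, 14, 10 and 8 in wild type. Its lowest library labelled overexpression, replicate 1, was inside the wild-type range (log2 1.19, SE 0.50, adjusted p = 0.41). Itgax, the CD11c integrin chain, held 40, 18, 44 and 42 counts in the libraries labelled overexpression, against 18, 20, 22 and 25 in wild type (log2 0.65, SE 0.42, adjusted p = 0.58). Replicate 2 labelled overexpression was its lowest library in CPM, unlike its position for Lyz2 or Trem2. For Tlr2, a receptor of bacterial lipoproteins, the log2 fold change was 0.53 (SE 0.31).

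Secreted activation genes showed no separation. Spp1, the osteopontin gene, stood at 6.37, 5.87, 5.60 and 4.84 CPM in the libraries labelled overexpression, against 4.32, 4.42, 5.71 and 5.29 CPM in wild type (log2 0.20, SE 0.15, adjusted p = 0.64). Ccl6, a myeloid chemokine of mice, had a log2 fold change of -0.16 (SE 0.40). The inflammatory chemokine Ccl3 held 14, 7, 12 and 1 counts in the libraries labelled overexpression, against 8, 10, 14 and 6 in wild type, and Ccl4 held 0, 0, 0 and 6, against 0 in all 4 wild-type libraries. Cst7, the cystatin F inhibitor of lysosomal proteases, held 6, 14, 0 and 6 counts in the libraries labelled overexpression, against 2, 0, 0 and 6 in wild type. These 3 and Ch25h are the members too low to test, and a difference was not detectable at this depth.

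**Figure D4:**
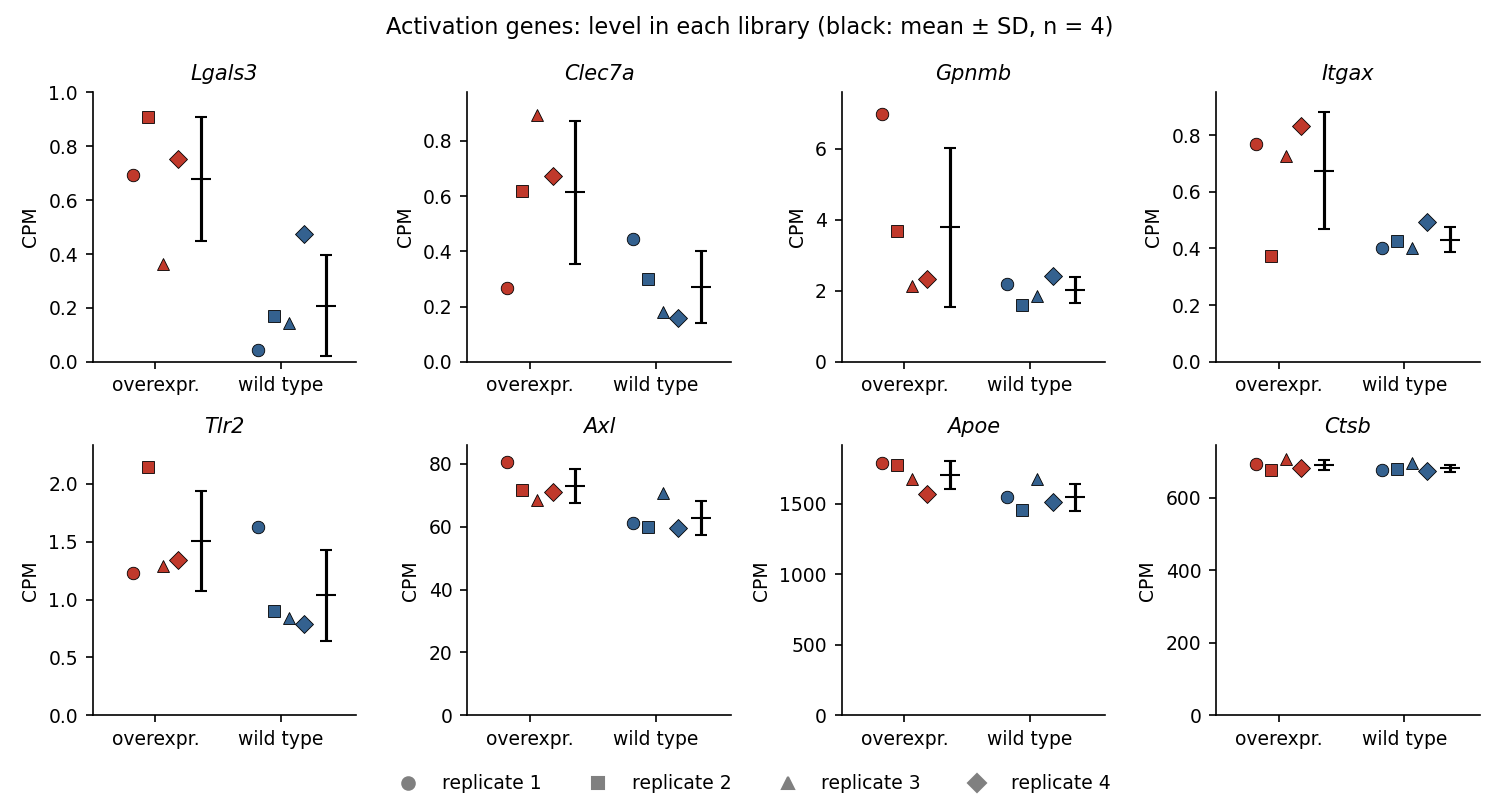
Level in CPM of 8 activation genes in each library, replicates 1 to 4 by symbol, with the mean and SD (n = 4) of the libraries labelled overexpression (left) and wild type (right). Lgals3, Clec7a and Itgax stay below 1 CPM, replicate 1 labelled overexpression stands apart for Gpnmb (6.96 CPM), and Ctsb is level.

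Replicates 1 and 2 labelled overexpression carried most of the homeostatic difference. The mean shift of the homeostatic genes from the wild-type mean was 0.23, 0.33, 0.027 and 0.032 on the log2 CPM scale in the libraries labelled overexpression, against 0.044, -0.0090, 0.068 and -0.10 in wild type. Replicates 1 and 2 labelled overexpression held the highest level of 18 of the 22 genes, 6 and 12 of them, where each library was highest for 9.72% to 18.5% of all genes. They exceeded all wild-type libraries in 16 and 17 of the 22, replicate 3 in 7 and replicate 4 in 3, where 20.8% to 22.4% of all genes did so in each of these libraries. Without replicates 1 and 2 the median log2 fold change of the homeostatic genes was 0.054 and that of the activation genes 0.071. Of 39 members, 4 were then higher and 3 lower at an unadjusted p under 0.05, where 10.3% of all genes differed in either direction. These replicates had the largest homeostatic shifts, so a smaller median follows in part from the choice to leave them out. The mean shift of the 16 tested activation genes was 0.40, 0.43, 0.27 and 0.26 in the libraries labelled overexpression, against -0.015, -0.017, 0.031 and 0.00049 in wild type, and it includes Lgals3 and Clec7a, which passed the filter mainly through the libraries labelled overexpression. The median shift of the same genes was smaller, at 0.23, 0.20, 0.11 and 0.094 in the libraries labelled overexpression, against -0.033, -0.021, 0.011 and 0.043 in wild type. For the homeostatic genes the median shift was 0.28, 0.33, 0.092 and 0.013 in the libraries labelled overexpression, against 0.073, -0.00018, 0.055 and -0.083 in wild type.

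**Figure D5:**
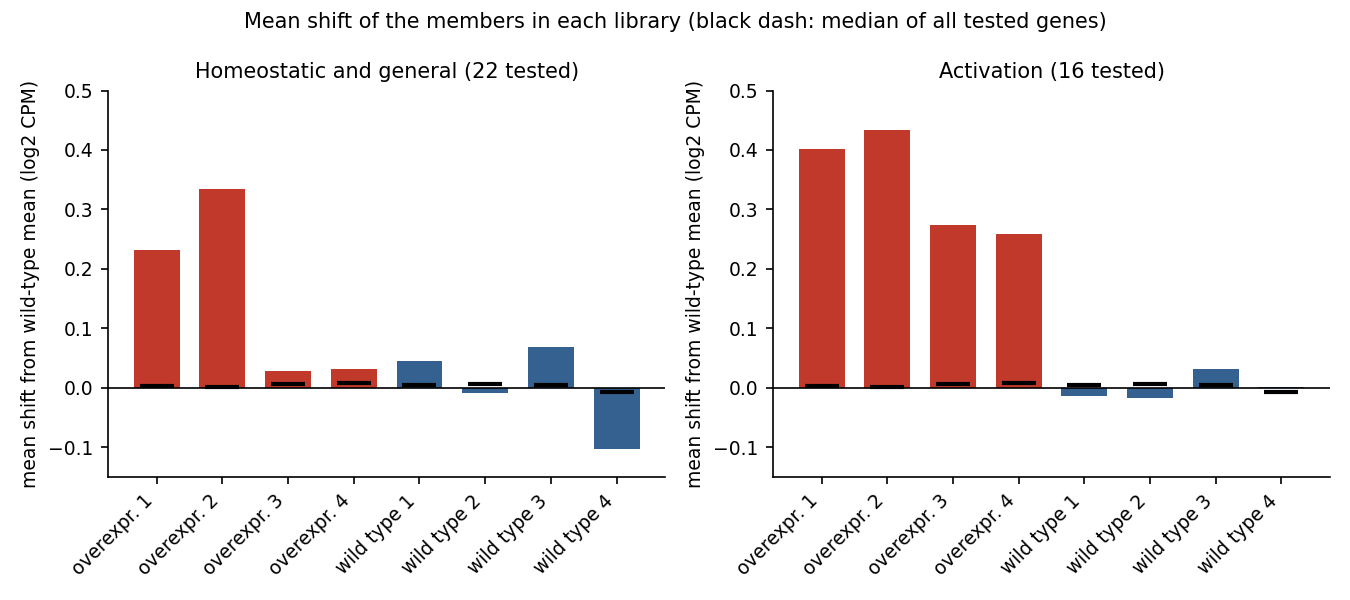
Mean shift of the members from the wild-type mean (log2 CPM) in each library labelled overexpression (left) and each wild-type library (right), with the median of all tested genes as a black dash. The homeostatic genes are higher in replicates 1 and 2 (0.23 and 0.33) and near wild type in replicates 3 and 4, and the mean of the activation genes ranges from 0.26 to 0.43 in the libraries labelled overexpression, where their median ranges from 0.094 to 0.23.

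The order of these shifts is not that of the targeted gene. Replicate 2 labelled overexpression, with 23.4 CPM of Ino80e, had the largest homeostatic shift, and replicate 4, with 45.04 CPM, one within the wild-type range. With replicates 2 and 3 left out, which leaves the libraries with raised Ino80e, the median was 0.17 for the homeostatic genes and 0.10 for the activation genes, and 9 of 39 members had an unadjusted p under 0.05, against 7.08% of all genes.

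Other genes of the microglial programme had fold changes mostly on the same side, less so in the signalling list once corrected for GC content. Of 8 transcription factor genes of microglia, 7 had fold changes above 0 (median log2 0.25), or 6 after GC correction (median 0.18), and none passed over all genes. Sall1, a regulator of microglial identity, had every library labelled overexpression above wild type, at 30.1 to 35.7 CPM against 24.6 to 29.9 CPM (log2 0.23, SE 0.076, adjusted p = 0.32), and Spi1, which encodes PU.1, a log2 fold change of 0.26 (SE 0.18), or 0.16 after GC correction. Of 20 further microglial genes 17 were above 0 (median 0.16), or 18 after GC correction (median 0.16), and none passed; the complement subunit gene C1qc was at log2 0.34 (SE 0.12) and the transporter gene Slco2b1 at 0.20 (SE 0.080). The signalling list covers TREM2 and CSF1 receptor signalling and also holds the ligand genes Il34, Cx3cl1 and Tgfb1. In it 13 of 15 genes were above 0 (median 0.10), but 8 of 15 after GC correction (median 0.027). None passed, and without the correction none had an unadjusted p under 0.05 in edgeR. The kinase genes Lyn and Syk had log2 fold changes of 0.26 (SE 0.13) and 0.27 (SE 0.15), and 0.30 and 0.21 after GC correction, where Lyn had an unadjusted p of 0.029 in edgeR.

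Summed markers of other blood-lineage cells overlapped between the groups. The 9 perivascular macrophage markers summed to 30.8 to 37.1 CPM in the libraries labelled overexpression, against 24.2 to 36.8 CPM in wild type, and of the 8 tested 6 had fold changes above 0 (median 0.16) and none passed. Their defining genes Mrc1 and Cd163, scavenger receptors of border macrophages chosen after their values were seen, had log2 fold changes of -0.21 (SE 0.21; -0.14 after GC correction) and 0.27 (SE 0.24). The 10 monocyte and neutrophil markers summed to 20.9 to 23.3 CPM in the libraries labelled overexpression, against 21.8 to 25.1 CPM in wild type, nearly all of it Vcan, which glial precursors also make, and 2 of them could be tested. Ccr2, the chemokine receptor of inflammatory monocytes, stood at 0.0769 to 0.372 CPM in the libraries labelled overexpression, against 0.337 to 0.668 CPM in wild type (log2 -1.29, SE 0.58, adjusted p = 0.44), and no marker of this list was at 0 in every library. The 10 T and B cell markers summed to 10.4 to 13.9 CPM in the libraries labelled overexpression, against 10.2 to 14.6 CPM in wild type. The part of any of these cells in the differences above was not tested.

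Of the astrocyte markers, 4 of 9 had fold changes above 0 (median -0.00040), or 7 after GC correction (median 0.021), and Gfap, the intermediate filament of reactive astrocytes, stood at 174, 221, 153 and 213 CPM in the libraries labelled overexpression, against 124, 117, 142 and 163 CPM in wild type (log2 0.48, SE 0.16, adjusted p = 0.40). Oligodendrocyte, endothelial and excitatory neuron markers had medians of -0.022, 0.024 and -0.010, or -0.039, -0.019 and -0.054 after GC correction, and none passed.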

How the data were processed

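Strand-specific poly(A) libraries from mouse medial prefrontal cortex (dUTP method, per the labels' protocols) were analysed from the table of raw read counts the authors deposited. The submitters' processing notes name Trimmomatic 0.39, STAR 2.7.10, featureCounts 2.0.3, mm10 and GRCm38, with no role, strand setting or annotation release. Of low counts (1 to 20), 67.3% were even, and of the members' counts from 1 to 99, 86.9%, so a fragment may count 2. Halved counts were tried as an alternative chosen after seeing the data. Symbols, exon lengths and GC content (longest transcript) came from GENCODE M21 by Ensembl identifier (54409 matched), and promoter windows from RefSeq.

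Genes were kept by filterByExpr (17636), scaled by TMM and tested with edgeR 4.0.16 (R 4.3.3), the robust quasi-likelihood test, 4 libraries against 4, with a threshold of 0.05 on the Benjamini-Hochberg adjusted p. The SE is the absolute log2 fold change over the square root of F. Shifts are in log2 CPM (prior count 2); FPKM is CPM per kilobase of exon. The GC correction was a spline with 5 degrees of freedom per library. Other settings were RLE and upper-quartile scaling, other filters, DESeq2 1.42.0, limma-voom (limma 3.58.1), a replicate block, non-robust estimation, and libraries left out.

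The members, lists and alternatives were chosen with earlier results of these data known. All members may be named; per-library values are given for members with an unadjusted p under 0.05 and a fixed core, and of other lists for up to 4 genes. On simulated data (17354 genes) edgeR found 48% of 50 genes changed 1.25-fold and 82% changed 1.5-fold. Whether these rates hold for the members in the 8 libraries was not tested.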

Additional observations from a re-analysis of the deposited data

Results flagged for a closer look

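In 88 groups of 4 libraries (42 genes and 2 mean shifts, each in both groups), the highest or lowest library was checked for a gap to its neighbour too large for the group's range by Dixon's 95% criterion. This marked 5 values, and chance marks about 1 group in 20. Tlr2 was marked in both groups, at 2.148 CPM in replicate 2 labelled overexpression and 1.626 CPM in wild-type replicate 1. Among the libraries labelled overexpression, replicate 4 was the only one with counts of Ccl4 (0.1186 CPM). Among wild-type libraries, replicate 3 stood high for Axl (70.68 CPM) and replicate 1 for Fcrls (32.28 CPM). Without wild-type replicate 1 the log2 fold change of Fcrls was -0.16, and without wild-type replicate 3 that of Axl was 0.28.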

How the results depend on the processing

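The median log2 fold change of both sets stayed above 0 in all 20 alternatives. It moved by more than the spread between libraries for the activation genes with GC correction (0.075), and for both sets without overexpression replicates 1 and 2 (0.054 homeostatic, 0.071 activation) and for the activation genes without overexpression replicates 2 and 3 (0.10). Leaving out single libraries gave medians of 0.14 to 0.25 (homeostatic) and 0.12 to 0.18 (activation), no member past the threshold, and 11 to 19 members at an unadjusted p under 0.05, where 7.40% to 13.8% of all genes had one. Without overexpression replicates 1 and 2 there were 7 (10.3% of all genes), and without 2 and 3 there were 9 (7.08%). With no low-count filter 2 homeostatic genes passed, Lyz2 and Laptm5, and 1 activation gene, Gpnmb, among 83 calls in 29946 genes, and DESeq2 called 1 homeostatic gene, Lyz2. The same-numbered libraries correlated at -0.051 to 0.027 in their deviations from the group means, and libraries of unlike number at -0.11 to 0.10. With so few libraries this cannot tell whether the numbers mark pairs, and the labels do not say. With the replicate block 18 members had an unadjusted p under 0.05, as without it, and none passed. Halved counts gave 18 as well.

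Of 757 fold changes of the 38 tested members, 727 kept their sign and their side of the threshold, 4 passed only in the alternative (Lyz2 in 2, Laptm5, Gpnmb) and 26 changed sign, in 10 genes whose fold changes were close to 0 except for Ctss and Ccl6; the cause was not tested. With GC correction P2ry13 was at 0.0059, Siglech at 0.022 and Lpl at 0.027. Without single libraries Itgam lay between -0.043 and 0.23, Siglech between -0.12 and 0.031, Cd9 between -0.037 and 0.091, P2ry13 between -0.22 and 0.018, Aif1 between -0.26 and 0.068, Ccl6 between -0.44 and 0.10, Lpl between -0.12 and 0.012, and Cd63 between -0.077 and 0.026. Without overexpression replicates 1 and 2 Itgam was at -0.28 and Ctss at -0.016. Without 2 and 3 Siglech was at 0.077, Cd53 at -0.0011 and Cd9 at -0.00037. Depth limits the rare genes: Cst7, Ccl3, Ccl4 and Ch25h were too low to test, and Lgals3, Clec7a and Itgax rest on 2 to 54 counts a library. If a fragment counts 2, fewer fragments lie behind these counts.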
